A study of Bos taurus with 48 samples.

Results

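The genes described here encode the proteins of the mitochondrial ribosome, and they were taken as every probe of the cattle array whose gene name, or symbol in the probe's description, starts with MRPL or MRPS followed by a number. The rule used names and no measured value. It found 75 of the 21475 probes, which stand for 74 of the 19715 genes on the array: 73 family symbols and LOC506989, a near copy of MRPL17 that the description names after it. Of these 74 members, 69 passed the filter on dim probes with a value on every array and were tested among 14644 genes.

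Mitochondria carry their own small genome, which encodes core subunits of the respiratory chain and of ATP synthase, and their own ribosome translates those messages next to the inner membrane. The ribosomal RNAs come from the mitochondrial genome, while every ribosomal protein is encoded in the nucleus, made in the cytosol and imported. Some of these proteins have homologues in bacterial ribosomes and others are found only in mitochondria. Skeletal muscle is rich in mitochondria, and its fibres depend on them for sustained work.

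Longissimus muscle samples of cattle, carrying 35 animal codes, were measured on 48 2-colour arrays, which give 96 channels and 26 conditions. The developmental arrays set animals labelled Piedmontese against animals labelled Wagyu, both crosses with Hereford in the study's methods, at 60, 135 and 195 days of gestation, at birth and at 3, 7, 12, 20, 25 and 30 months of age. The diet arrays set Belmont Red animals on a weight loss diet (restricted) against animals on a weight growth diet at times 0, 1 and 2 of a period of underfeeding and refeeding. Both arms of an experiment shared each array, 1 in each dye, so that the arms were compared within arrays. The 60-day stage rests on 1 fetus of each cross, each measured on 3 arrays. The other prenatal stages hold 5 animal codes each, birth holds 6, and 9 animals followed after birth give 8 at each age except 6 at 12 months. The diet arms held 4 and 4 animals at time 0, 3 restricted and 4 growth animals at time 1 and 2 of each at time 2. No genotype, sex or pooling of animals was stated in the sources used here, and p-values measure the spread between these animals. A level below is the background-corrected and normalized log2 intensity of a gene's probe, 1 value per animal and age, and a difference of 1 on this scale is 2-fold. A gene was called where limma's p-value, adjusted by Benjamini-Hochberg over all genes tested, was below 0.05. Beside each count of members, the share of all genes called in the same comparison is given as the background.

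The prenatal and birth arrays lie together on 3 slides, and each of these slides holds 1 array of every stage. The post-natal and diet arrays lie on other slides, scanned in other sessions, so that age and slide cannot be told apart between birth and 3 months or between prenatal and post-natal animals. The 12 slides were scanned in 6 sessions. The 135-day Piedmontese animal GP672 went against its muscle label. All 7 muscle fibre markers were lower in it, and all 5 adipocyte markers higher, than in every other 135-day animal. ACTA1, skeletal muscle actin, had a log2 level of 10.02 there and of 16.73 to 17.58 in the other 4 animals, and FABP4, a fatty acid carrier of adipocytes, had 16.56 and 9.02 to 11.63. Counts of called members whose groups include this animal are given without it too. Without it the members' median from prenatal to post-natal animals was 0.77, and among the 14 lists and member classes of that comparison no count of higher genes changed, no count of lower genes changed by more than 1 and no median by more than 0.054. At every other stage all 7 muscle fibre markers were well above background in every channel.

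The probes of MRPL17 and LOC506989 are shown because they share a run of 20 bases (capitals), so that a transcript of either gene could bind both probes over that run. RefSeq (ARS-UCD2.0) lists 1 gene between this pair. The lines give bases 31 to 60 of the first probe and bases 26 to 55 of the second, both 60 bases long.
MRPL17: gagaTAGTAAATTCATGGCATGTTctggct
LOC506989: TAGTAAATTCATGGCATGTTtctggcgcct
Binding of one transcript to the other's probe was not tested. Over the 26 conditions the levels of this pair had a Pearson's r of 0.710, given as a description.

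Of the members outside the test, MRPS22, MRPS7 and MRPS33 were too dim: their probes were well above background in 2, 19 and 21 of the 96 channels. The probe named MRPS7 is described in the files as MIF4GD, whose range overlaps it in RefSeq, and is ambiguous. MRPL41 and MRPL53 lacked a value on 1 array each because of outlier flags. Among the tested members, MRPS12 was well above background in 36 channels, MRPS23 in 70 and MRPL35 in 88, and neither MRPS12 nor MRPS23 was so in any channel at 60 days. No member was saturated in any channel. MRPS36 is a member by name, although the protein is now known as a component of the 2-oxoglutarate dehydrogenase complex of the citric acid cycle and not of the ribosome.

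The family stood low before birth and high from birth on. The mean level of the 69 tested members was 10.81 ± 0.03 (SD, n = 2) at 60 days of gestation, 10.98 ± 0.05 (SD, n = 5) at 135 days, or 10.96 ± 0.05 (SD, n = 4) without GP672, and 11.04 ± 0.05 (SD, n = 5) at 195 days. It was 11.73 ± 0.09 (SD, n = 6) at birth and then stayed between 11.67 ± 0.08 (SD, n = 8) at 3 months and 11.77 ± 0.05 (SD, n = 6) at 12 months. The lowest newborn animal, at 11.62, lay above the highest prenatal one, at 11.11, and the lowest post-natal value was 11.48. The mean over all genes differed little between these stages, from 9.54 ± 0.03 (SD, n = 2) at 60 days to 9.57 ± 0.006 (SD, n = 6) at birth. Normalization between arrays gives all arrays the same distribution of mean intensities, so this near constancy is set by the processing. Birth was the stage of the highest mean for 23 of the 69 members against 21.2% of all genes, 12 months for 15 against 8.67%, and 25 months for 12 against 5.64%. For 46 members the lowest mean was at 60 days, against 31.3% of all genes. Without GP672 the counts of highest means were again 23, 15 and 12, and 44 members had the lowest at 60 days. In these samples of whole muscle, fewer cells of a type and less RNA per cell cannot be told apart.

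**Figure D1:**
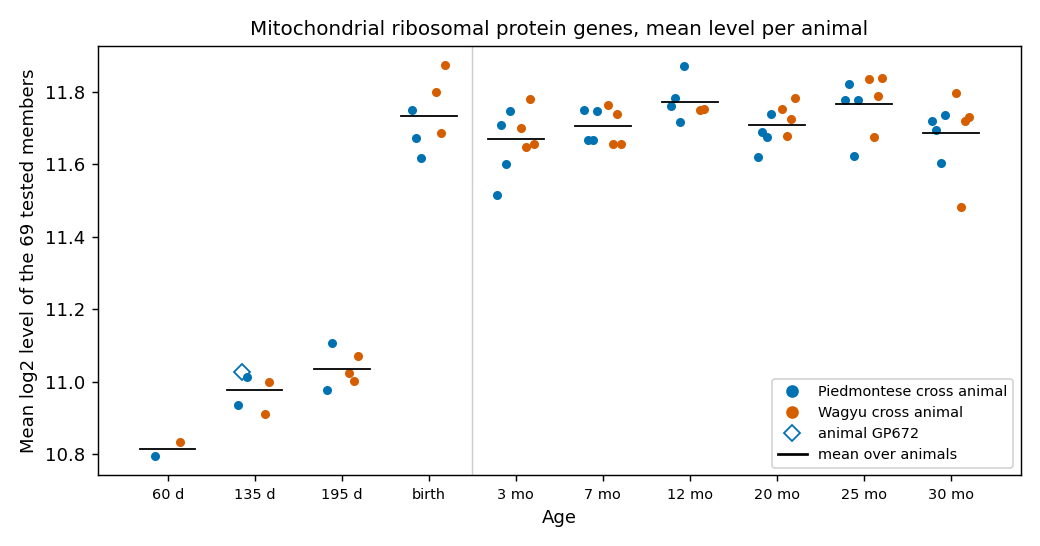
Mean log2 level of the 69 tested members (y axis) in each animal (points, coloured by cross, the open diamond being animal GP672) at each age from 60 days of gestation to 30 months (x axis), with a line at the mean of each age. All 12 prenatal animals lie at or below 11.11 and all newborn and older animals at or above 11.48.

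Between the prenatal stages the share of members called was near or below that of all genes. From 60 to 135 days of gestation 5 members rose and 1 fell, against 4.92% and 5.21% of all genes, and the members' median difference was 0.16 against 0.03 for all genes. MRPS36 had levels of 9.55 and 9.45 at 60 days and of 10.17, 10.64, 10.46, 10.19 and 10.62 at 135 days, and rose by 0.92 (SE 0.18; limma adjusted p = 0.0035). MRPL12, the homologue of the bacterial stalk protein that contacts translation factors, had 9.70 and 9.94 at 60 days and 10.46, 10.52, 10.32, 10.61 and 10.18 at 135 days. For both genes every 135-day animal was above both 60-day animals. MRPL12 rose by 0.61 (SE 0.16; limma adjusted p = 0.020), and MRPL21 and MRPL27 by 0.65 and 0.54. MRPL23, which lies at the exit of the peptide tunnel, rose by 0.47. MRPL33 fell by 0.59 (SE 0.15; limma adjusted p = 0.020), from 11.38 and 11.34 to 10.76, 10.68, 10.76, 10.92 and 10.77. With 1 fetus of each cross at 60 days, these calls depended on single animals. Without either 60-day animal 0 members were called, and without the 135-day animal GP921 or GW780 3 were. Without GP672 there were 9 (7 higher and 2 lower), but the background was then also larger, at 8.58% of all genes higher and 7.57% lower.

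From 135 to 195 days 3 members rose and 2 fell, against 8.43% and 8.92% of all genes. MRPS28, a small subunit protein, had 11.63, 11.74, 11.82, 11.75 and 11.95 at 135 days and 12.83, 12.69, 13.06, 12.19 and 12.58 at 195 days, a rise of 0.90 (SE 0.22; limma adjusted p = 0.010). MRPL15 rose by 0.67 (SE 0.17; limma adjusted p = 0.013) and MRPL49 by 0.28. These rises were without overlap between the stages. MRPL52 fell by 0.48 (SE 0.12; limma adjusted p = 0.011) and MRPL10, the protein that anchors the MRPL12 stalk to the large subunit, by 0.38. GP041A and GP041B carry the same number in their labels, and whether they are separate animals is not stated. The count was 3 without either of them, and 3 (2 higher and 1 lower) with both counted as 1 animal, where MRPL49 and MRPL10 were not called. Without GP672 it was 4 (2 higher and 2 lower), against 9.16% of all genes higher and 10.1% lower.

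Between 195 days of gestation and birth most of the family rose. Of the 69 members, 51 were higher at birth and 2 lower, against 33.7% and 29.2% of all genes, with a median difference of 0.82 against 0.06 for all genes. In 43 members all 6 newborn animals lay above all 5 animals of 195 days and in 2 they lay below, against 25% and 22.9% of all genes. Since each of the 3 slides holds both stages, the difference can also be read within each slide: 61, 57 and 60 members were higher at birth there, with medians of 0.84, 0.68 and 0.85. The counts were again 51 and 2 without GP672, also in each subunit and class below, and 51 and 2 with GP041A and GP041B as 1 animal. Both subunits took part: 15 of 21 small subunit members rose and 1 fell, with a median of 0.68, and 35 of 47 large subunit members rose and 1 fell, with a median of 0.88. Of the 41 members with a homologue in bacteria 29 rose and 2 fell (median 0.66), and of the 26 found only in mitochondria, MRPS36 left aside, 21 rose and 0 fell (median 1.05).

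MRPS36 had levels of 10.65, 10.82, 10.71, 10.63 and 10.98 at 195 days, and of 12.13, 12.57 and 12.88 as the lowest, median and highest of the newborn animals. It rose by 1.78 (SE 0.13; limma adjusted p = 1.2e-08), or 3.43-fold, which was the largest rise in the family. MRPL34, a small basic protein of the large subunit with a bacterial homologue, had 9.22, 9.40, 9.34, 9.34 and 9.48 and then 10.29, 11.18 and 11.42. The newborn animals lay wholly above the 195-day animals for both genes. MRPL34 rose by 1.68 (SE 0.16; limma adjusted p = 1.8e-07), or 3.20-fold. MRPL50, which is specific to mitochondria, had 10.38, 10.73, 10.18, 10.24 and 10.51 at 195 days and 11.43, 11.94 and 12.40 at birth, a rise of 1.54 (SE 0.16; limma adjusted p = 5.2e-07). MRPS35, MRPL42, MRPS31 and MRPS30 rose by 1.45, 1.38, 1.32 and 1.31, each without overlap of the animals. The 2 probes of MRPL39, the only member with more than 1 probe, moved together, from 10.52 to 11.80 and from 10.14 to 11.40 between the stage means.

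MRPL3, a protein of the core of the large subunit with a bacterial homologue, had 8.83, 8.89, 8.95, 8.95 and 8.95 at 195 days and 10.09, 10.32 and 10.44 at birth. It rose by 1.39 (SE 0.11; limma adjusted p = 2.3e-08). MRPL12 had 10.43, 10.46, 10.27, 10.69 and 10.78 and then 11.24, 11.56 and 11.84, a rise of 1.05 (SE 0.11; limma adjusted p = 9.9e-07). The MRPS18 paralogs, the counterparts of a single bacterial protein, sit in different places: MRPS18A in the large subunit, MRPS18B and MRPS18C in the small one. All 3 rose without overlap, MRPS18A by 1.41 (SE 0.12), MRPS18B by 1.15 (SE 0.08) and MRPS18C by 0.98 (SE 0.10). The dim probe of MRPS12, a protein of the decoding centre, had a difference of 0.07 (SE 0.05; limma adjusted p = 0.21) and was well above background in 2 of 6 channels at each of these stages.

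Against the direction of the family, MRPL27 and MRPS24 fell. MRPL27, which reaches towards the peptidyl transferase centre, had 13.74, 13.92, 13.73, 13.73 and 13.76 at 195 days and 12.79, 13.14 and 13.60 at birth, a fall by 0.64 (SE 0.12; limma adjusted p = 0.00020). MRPS24, a small subunit protein with a bacterial homologue, had 11.97, 12.38, 12.26, 12.03 and 12.06 and then 11.24, 11.44 and 11.76, a fall by 0.64 (SE 0.10; limma adjusted p = 5.9e-05). All newborn animals were below all 195-day animals for both. With the arrays centred on their medians and no loess, 50 members rose and 0 fell, against 25.9% and 18.4% of all genes. Neither fall was called under that scaling, and the median of all genes moved to 0.19. The 2 members left out for outlier flags also rose when those spots were kept, MRPL53 by 1.03 (SE 0.14; limma adjusted p = 1.5e-05) and MRPL41 by 0.43 (SE 0.11; limma adjusted p = 0.0037).

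**Figure D2:**
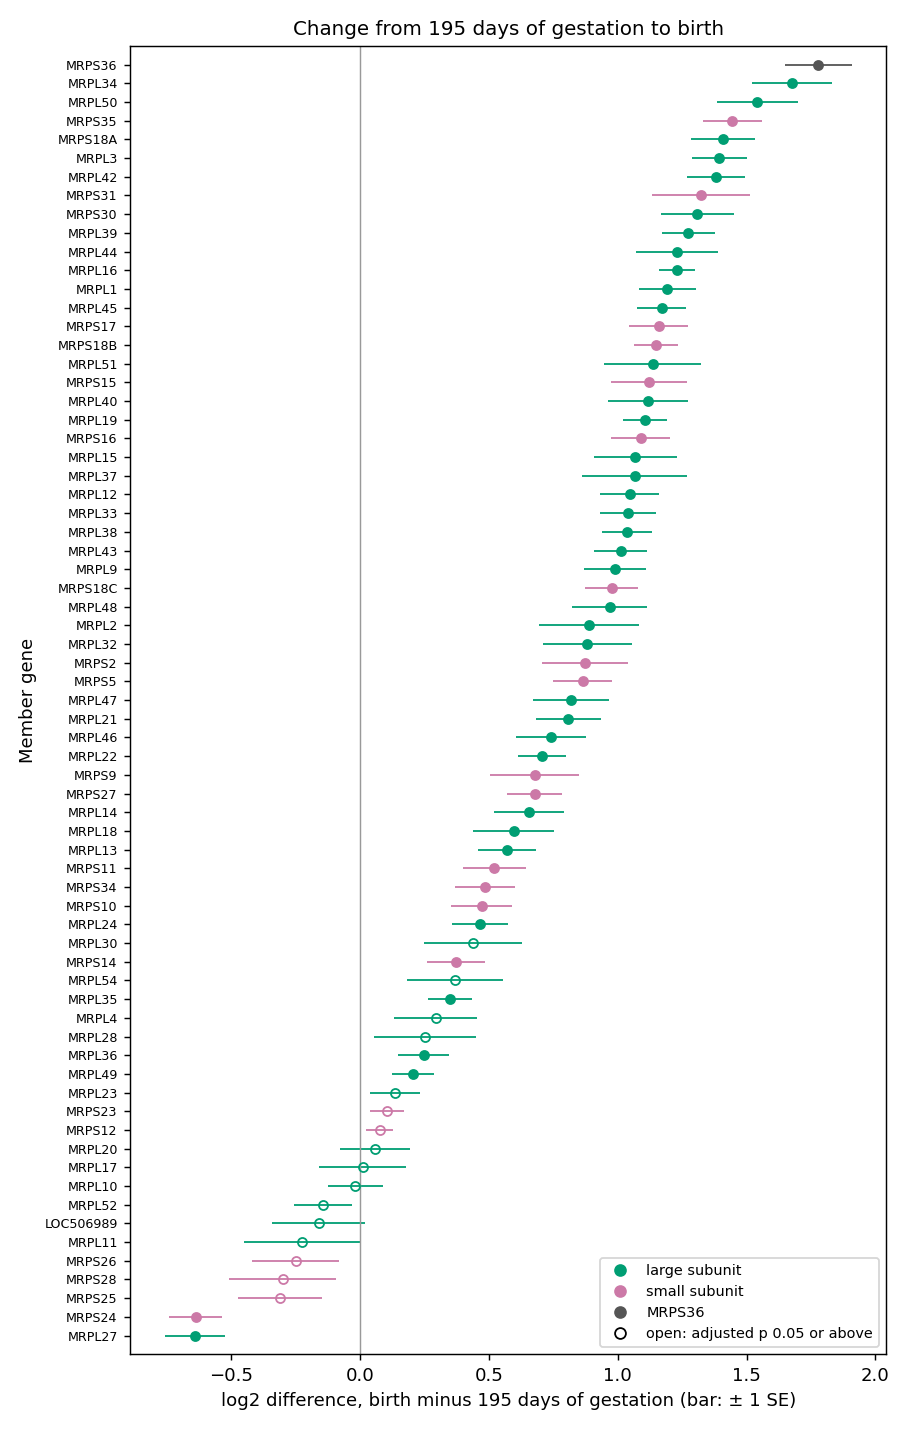
Log2 difference between birth and 195 days of gestation (x axis, bars ± 1 SE) for each of the 69 tested members (y axis), coloured by subunit, with open symbols where the adjusted p was 0.05 or above. The filled points lie to the right of 0 for 51 members and to the left for MRPL27 and MRPS24.

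Markers of other cell types in the samples moved at the same step. The summed level (linear scale) of 4 blood markers had a median of 159018 at 195 days and of 3287 at birth. That of 4 fibroblast markers was 107624 and 19527, and that of 3 markers of dividing cells 2943 and 448. Among the fibroblast markers PDGFRA, at -0.10, was not called. For 3 endothelium markers the sum was 12568 and 5525, but they went different ways. PECAM1 and CDH5 had differences of -1.48 and -2.23, and VWF of 0.85 (limma adjusted p = 0.0021). Of the leukocyte markers, PTPRC and LCP1 rose by 0.42 and 0.50. CD74 had a difference of -1.24, and CD3E, at -0.028, was not called. The sum of 7 muscle fibre markers was 566184 to 723264 at 195 days and 609430 to 795880 at birth, and these ranges overlap. Among these 7, TTN, the giant elastic protein of the sarcomere, rose by 1.92 (SE 0.44; limma adjusted p = 0.0012), and CKM, muscle creatine kinase, had a difference of 1.34 (SE 0.63; limma adjusted p = 0.073). MYH1, MYH7 and DES had differences of 0.80, 0.52 and 0.33, and ACTA1 and TNNT3 of -0.24 and -0.54. Of the 7, only TTN was called. The part of these cell types in the rise of the members was not tested.

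After birth fewer members rose than fell. From birth to 3 months 8 members rose and 20 fell, against 22.2% and 22.8% of all genes. The medians were -0.11 for the members and -0.02 for all genes. With arrays centred on their medians and no loess 0 members rose and 6 fell, against 3.85% and 7.74% of all genes. MRPL27 had 13.94, 14.14 and 14.29 as the lowest, median and highest level of 8 animals at 3 months and was wholly above the newborn animals, a rise of 1.01 (SE 0.11; limma adjusted p = 9.7e-06). MRPL49 rose by 0.65 (SE 0.11), MRPS24 by 0.63 (SE 0.09), MRPS23 by 0.51 (SE 0.10) and MRPS18C by 0.51 (SE 0.09). Hence MRPL27 and MRPS24, the members that fell to birth, rose again by 3 months, with the same newborn animals in both steps. MRPS23 was well above background in 2 of 6 newborn channels. MRPL18, MRPS14 and MRPS34 rose by 0.44, 0.41 and 0.25, and MRPS34 was at -0.072 under median centring.

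Of the 51 members that rose to birth, 17 fell by 3 months. Both steps use the same newborn animals, so a high value there favours both calls. The share of all genes with this pair of calls is not given. MRPL14 had 11.46, 11.87 and 12.23 at birth and 10.87, 11.15 and 11.43 at 3 months, a fall by 0.70 (SE 0.11; limma adjusted p = 0.00025). MRPL12 was at 10.61, 10.90 and 11.24 at 3 months, a fall by 0.69 (SE 0.11; limma adjusted p = 0.00019), with its highest 3-month animal next to its lowest newborn one at 11.24. MRPL50 fell by 0.67, MRPS18B by 0.64, MRPS27 and MRPL15 by 0.55 and MRPS35 by 0.52. MRPL52, which had not risen to birth, fell by 0.62. The MRPS18 paralogs thus went different ways, since MRPS18A fell by 0.26 (SE 0.10) and MRPS18C rose. MRPS36, MRPL3 and MRPS12 had differences of 0.16, -0.14 and -0.018 that did not pass the test. Blood markers had a summed level of 2231 to 4460 at birth and of 1007 to 40489 at 3 months, and fibroblast markers of 15452 to 33680 and 29285 to 52259. These ranges overlap, and their part in the result was not tested.

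Over the whole step from prenatal to post-natal animals, with 1 value per animal averaged over its ages, 59 of the 69 members were higher in the 9 post-natal animals and 5 were lower than in the 12 prenatal ones. The background was 38.7% and 36.1% of all genes, and the medians were 0.75 for the members and 0.02 for all genes. The groups did not overlap in 44 members that were higher and 1 that was lower, against 21.4% and 19.7% of all genes, and in 45 and 1 without GP672. The counts were again 59 and 5 with any single animal left out, GP672 included, or with GP041A and GP041B as 1 animal. Under median centring they were 57 and 3, against 36.1% and 29.1% of all genes, and the median of all genes moved to 0.12. Of the 51 members that rose from 195 days to birth, 50 were also higher after birth. The 195-day animals are the earlier group, or part of it, in both comparisons, so these calls are not independent. The share of all genes with both calls is not given. In small subunit members 19 of 21 rose and 1 fell (median 0.83), and in large subunit members 39 of 47 rose and 4 fell (median 0.72). Among members with a bacterial homologue 34 of 41 rose and 2 fell (median 0.63), and among those specific to mitochondria 24 of 26 rose and 2 fell (median 0.99).

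MRPS36 was 2.32 (SE 0.16; limma adjusted p = 3.1e-11) higher after birth. Its lowest post-natal level, 11.93 in 1 animal at 3 months, was above the highest prenatal level of 10.98. MRPL34 was 2.29 (SE 0.11; limma adjusted p = 9.5e-14) higher, with prenatal levels of 8.53 to 9.48 and a range of 10.79 to 11.83 after birth. MRPL51 was 1.89 (SE 0.08; limma adjusted p = 2.3e-14) higher. Its level was 8.70, 9.27 and 10.03 at birth as the lowest, median and highest, and 9.17, 9.87 and 10.28 at 3 months, and it was 0.75 (limma adjusted p = 8.6e-05) higher in post-natal than in newborn animals, a difference exceeded by MRPL27 alone, at 0.94. MRPS16, MRPL39, MRPS18C, MRPL48 and MRPL37 were 1.61, 1.56, 1.55, 1.42 and 1.36 higher. MRPL3 was 1.17 (SE 0.09), MRPS18A 1.35 (SE 0.08), MRPS18B 0.83 (SE 0.07), MRPL12 0.43 (SE 0.11) and MRPS12 0.22 (SE 0.03) higher, the last from a probe well above background in 0, 4 and 2 of 6 channels at 60, 135 and 195 days. Against newborn animals in place of prenatal ones, 16 members were higher and 18 lower after birth, shares near the 22.6% and 25.9% of all genes. MRPL12 and MRPS18B then had differences of -0.76 and -0.43, and MRPL3 and MRPS18A, at -0.041 and -0.13, were not called. Markers of the cell types also moved from prenatal to post-natal animals. The muscle fibre markers CKM, TTN and MYH1, a fast myosin, were 3.43 (SE 0.77), 3.24 (SE 0.36) and 3.03 (SE 0.79) higher, and the leukocyte marker CD74 was 2.77 (SE 0.33) higher. Of the other fibre markers, DES was 1.16 higher, and ACTA1, MYH7 and TNNT3, at 0.40, 1.28 and 0.87, were not called. The haemoglobin gene HBA, the collagen gene COL3A1 and TOP2A, a marker of dividing cells, had differences of -5.84 (SE 0.25), -2.84 (SE 0.17) and -3.65 (SE 0.29). The part of these cell types in the members' differences was not tested.

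Of the 5 members that were lower after birth, MRPL52 and MRPL10 had also fallen from 135 to 195 days. MRPL52, a large subunit protein found only in mitochondria, had 12.12 and 12.24 at 60 days, 11.82, 12.29, 11.98, 11.85 and 12.02 at 135 days and 11.32, 11.64, 11.56, 11.60 and 11.57 at 195 days. Its lowest, median and highest levels were 10.95, 11.44 and 11.67 at birth and 10.59, 10.71 and 10.97 at 3 months. It was lower after birth by 1.05 on the log2 scale, a difference of -1.05 (SE 0.10; limma adjusted p = 5.1e-09), with no overlap. MRPL10 had 13.35 and 13.39 at 60 days and 12.63, 12.73, 12.38, 12.65 and 12.71 at 195 days, and its difference was -0.53 (SE 0.12; limma adjusted p = 0.00032). The groups overlapped for MRPL10. LOC506989 was at -0.53 (SE 0.13), MRPS25 at -0.45 (SE 0.08) and MRPL20 at -0.24 (SE 0.06), or at 0.12 under median centring. MRPL17, whose probe shares the capital letters above with that of LOC506989, had a difference of -0.13 (SE 0.09; limma adjusted p = 0.18). MRPL10 and MRPL12, which meet in the stalk, differed in sign across this comparison.

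**Figure D3:**
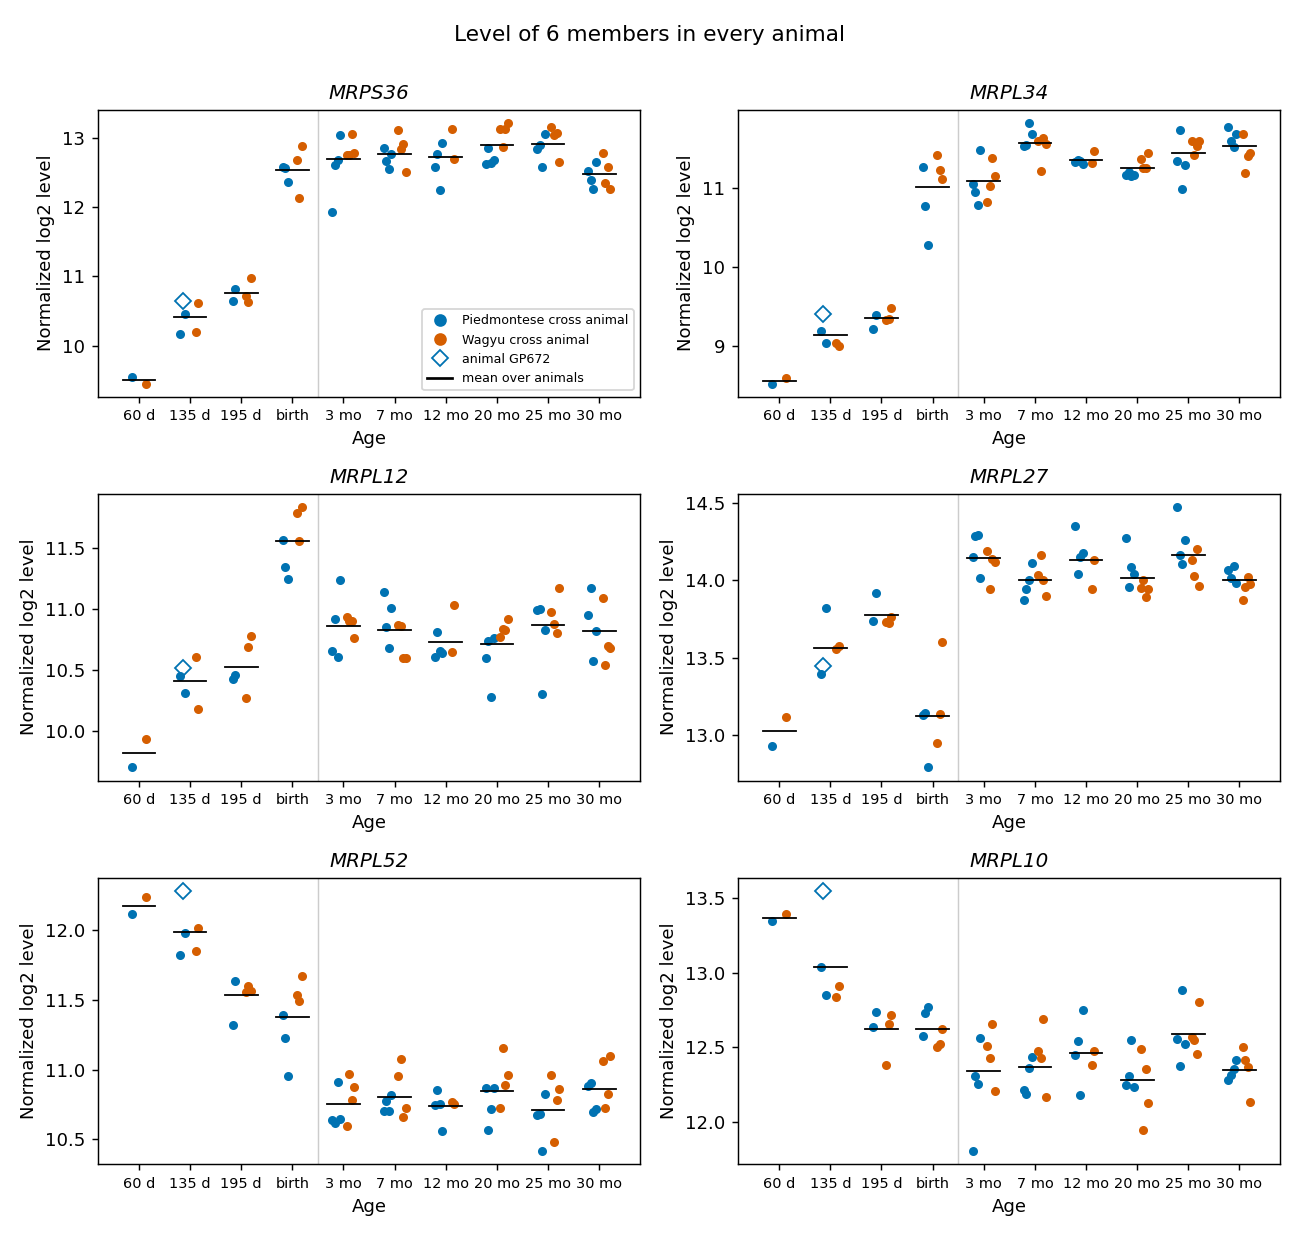
Normalized log2 level (y axis) of MRPS36, MRPL34, MRPL12, MRPL27, MRPL52 and MRPL10 in each animal (points, coloured by cross) at each age (x axis), with a line at the mean of each age and an open diamond for animal GP672. MRPS36 and MRPL34 step up at birth, MRPL12 peaks at birth, MRPL27 dips there, and the means of MRPL52 and MRPL10 are highest at 60 days of gestation.

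The rest of the mitochondrial gene expression machinery is given by lists of its parts. From prenatal to post-natal animals 38.7% of all genes were higher and 36.1% lower, which is the background for these lists. All 8 tested genes listed as mitoribosomal proteins that carry other names on the array were higher after birth and 0 lower, among them GADD45GIP1 at 1.65 (SE 0.11). OXA1L, counted in this list, is an insertase of the inner membrane that docks to this ribosome, and was at 1.07 (SE 0.09). Of 15 mitochondrial translation factors 14 were higher and 0 lower, with METAP1D, a methionine aminopeptidase, at 1.29, GFM2, a ribosome recycling factor, at 1.27 and TSFM, an elongation factor, at 1.19. Mitochondrial aminoacyl-tRNA synthetases, which charge the tRNAs, were higher in 13 of 18 and lower in 2, with FARS2 at 1.10 and NARS2 at 1.02. Assembly factors of the ribosome were higher in 17 of 22 and lower in 4: FASTKD2 was at 1.28 and the ribosomal RNA methyltransferase NSUN4 at 1.25, while DHX30, an RNA helicase, was at -1.21 (SE 0.06). Of 13 genes for transcription and upkeep of mitochondrial DNA 12 were higher and 1 lower, led by the transcription factor TFB2M at 1.78 (SE 0.07). Among 15 regulators of mitochondrial biogenesis 7 were higher and 3 lower, with ESRRA at 2.65 (SE 0.24) and PPRC1 at -1.22 (SE 0.12). The share of higher regulators was near that of all genes.

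The respiratory chain and the cytosolic ribosome frame the family on either side. All 36 tested subunits of complex I were higher after birth, with a median of 1.20, and NDUFS1, an iron-sulfur subunit, was at 2.56 (SE 0.12). Of 34 subunits of complexes III, IV and V 30 were higher and 3 lower, with a median of 0.95, and UQCRFS1, the Rieske protein, was at 2.37 (SE 0.14). Of 79 cytosolic ribosomal proteins, in contrast, 71 were lower and 6 higher, with a median of -0.88. RPL3 was at -2.92 (SE 0.14), while RPL3L, its paralog in striated muscle, was at 3.95 (SE 0.89). From 195 days to birth 31 complex I subunits rose and 0 fell, and 13 cytosolic ribosomal proteins rose and 28 fell, or 14 and 29 without GP672. The background there was 33.7% of all genes higher and 29.2% lower. From birth to 3 months 13 complex I subunits rose and 0 fell while 1 cytosolic ribosomal protein rose and 71 fell, next to 8 and 20 of the members. All genes rose in 22.2% and fell in 22.8% at that step. Differences between lists were not tested.

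**Figure D4:**
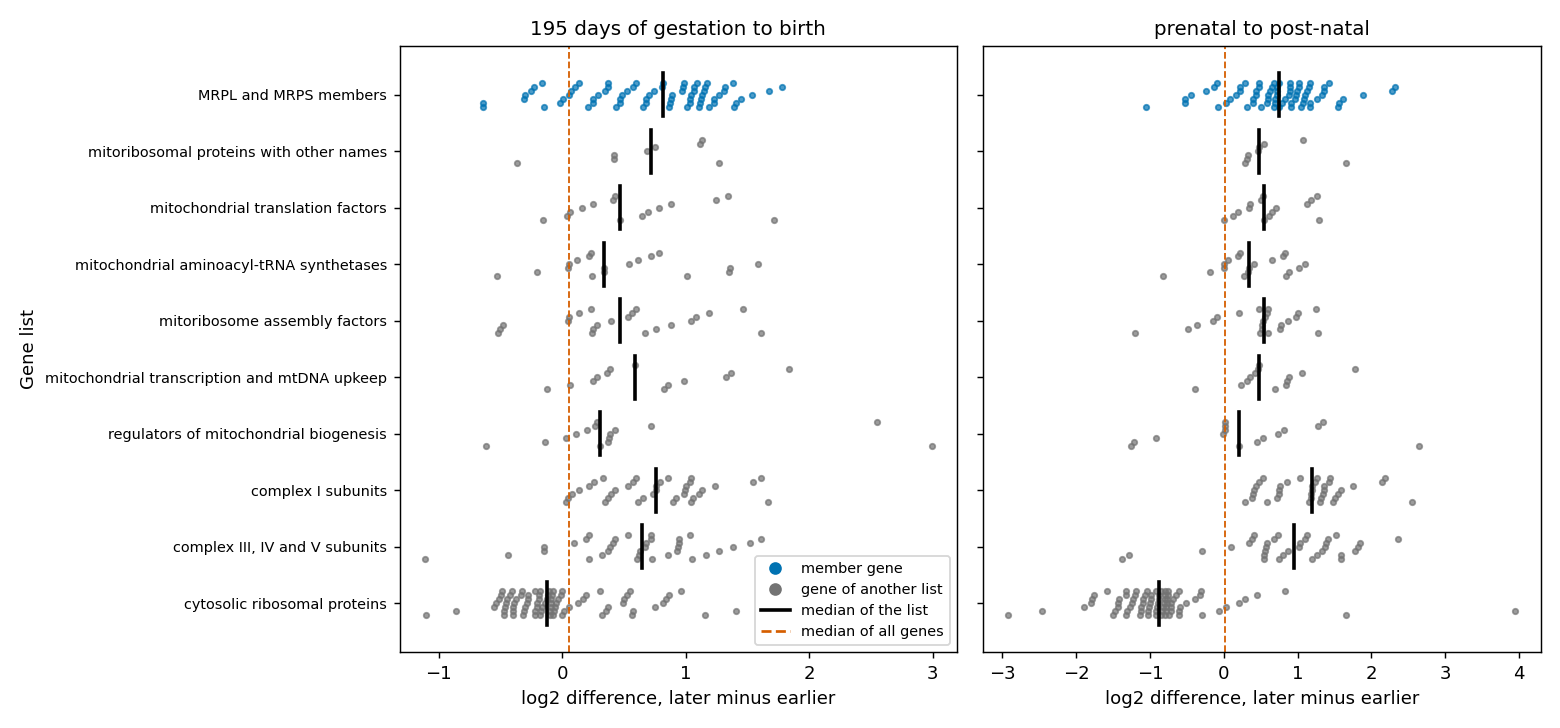
Log2 difference (x axis) of each tested gene (points) of the member family and of 9 other gene lists (y axis), from 195 days to birth (left panel) and from prenatal to post-natal animals (right panel), with a bar at each list's median and a dashed line at the median of all genes. The members' medians are 0.82 and 0.75, and the cytosolic ribosomal proteins' are -0.13 and -0.88.

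Within the post-natal period the levels of 53 of the 69 members differed among the 6 ages, against 69.7% of all genes, a share near that of all genes. The ages of 25 and 30 months lie on other slides than the ages of 3 to 20 months. The largest spread of age effects was 0.90 for MRPL4, followed by 0.87 for MRPS18A and 0.67 for MRPS25. MRPS18A had a lowest, median and highest level of 10.26, 10.43 and 10.50 at 12 months and of 10.73, 11.32 and 11.85 at 30 months, and these ages did not overlap. From 3 to 20 months 10 members rose and 6 fell, against 16.2% and 14.9% of all genes. MRPS16 and MRPL48 rose by 0.35, MRPL19 by 0.34, MRPL35 by 0.31 and MRPL3 by 0.27, while MRPL50 fell by 0.45 and MRPL36 by 0.38. MRPL3 was the only called member whose animals at the ages did not overlap, with 9.79, 10.23 and 10.31 at 3 months and 10.32, 10.42 and 10.72 at 20 months. Of all genes, 1.93% were wholly higher and 2.04% wholly lower at 20 months, so that 1 member is near the background. Under median centring 0 members were called in this step, against 0.867% of all genes higher and 0.963% lower.

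From 25 to 30 months 5 members rose and 23 fell, against 13.7% and 11.2% of all genes, but with arrays centred on their medians and no loess or between-array step 58 rose and 2 fell, against 51.0% and 21.8% of all genes. The median of all genes moved to 0.47 there, and the members' median relative to it was 0.43, against -0.098 with the loess values. MRPL4 had a difference of -0.45 (SE 0.11), MRPS36 of -0.44 (SE 0.09), MRPS31 of -0.41 (SE 0.10) and MRPS23 of -0.38 (SE 0.10), and all but MRPS23 among these turned positive under median centring, at 0.63, 0.62 and 0.57. MRPL14 had a difference of 0.30 (SE 0.09) and MRPL50 of 0.25 (SE 0.08). The animals overlapped between the ages for all 28 called members, while 1.77% of all genes were wholly higher and 1.2% wholly lower at 30 months. Without the animal GP130 the count was 17. Blood markers had a summed level of 5429 to 29793 at 25 months and of 703 to 2528 at 30 months, and their part in these differences was not tested.

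No member was called between the crosses. Before and at birth 0 members were called by limma between 9 Piedmontese and 9 Wagyu animals, against 0% of all genes in either direction, and 1 member and 610 genes had an unadjusted p below 0.05. That member was MRPL20, at -0.25 (SE 0.11), Piedmontese minus Wagyu. After birth 0 members were called between 5 Piedmontese and 4 Wagyu animals, against 0% of all genes in either direction, and 9 members and 712 genes had an unadjusted p below 0.05. Among these, MRPS27, MRPS31 and MRPS5 differed by -0.21 (SE 0.06), -0.24 (SE 0.07) and -0.26 (SE 0.08), and MRPL44 and MRPL48 by 0.21 (SE 0.08) and 0.18 (SE 0.07). The crosses did not overlap in 2 members that were higher in Piedmontese animals and 4 that were lower, against 0.758% and 0.97% of all genes. With the deposited log ratios and the array as the unit, which repeats animals, 12 members were called after birth, 3 higher and 9 lower in Piedmontese animals. The share of all genes called in that setting is not given, so these 12 have no background to be read against. The member differences lay between -0.31 and 0.16 before and at birth and between -0.32 and 0.45 after it.

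In the diet experiment the share of members called was near or below that of all genes at each time. At time 0, 0 members were called by limma, against 0.526% of all genes higher and 0.492% lower in restricted animals. Of the members, 8 had an unadjusted p below 0.05. The share of all genes with such a p is not given for time 0 or time 2, so these counts have no background. At time 1, 3 members were higher and 4 lower in the 3 restricted than in the 4 growth animals, against 7.08% and 6.92% of all genes, while median centring without loess gave 7 higher and 0 lower, against 11.8% and 3.93%. The members' median relative to that of all genes was -0.080 with the loess values and 0.13 with median centring. The arms did not overlap in 6 members that were higher in restricted animals and 11 that were lower, against 15.1% and 14.5% of all genes. At time 2, with 2 animals in each arm, 0 members were called, against 0% of all genes in either direction, and 2 had an unadjusted p below 0.05. The arms were then wholly apart in 12 members that were higher and 14 that were lower, against 14.8% and 16.5% of all genes. The mean level of the members was 11.58 ± 0.09 (SD, n = 3) in restricted and 11.69 ± 0.09 (SD, n = 4) in growth animals at time 1.

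MRPL23 had levels of 14.06, 14.08 and 13.90 in the restricted animals at time 1 and of 13.14, 13.30, 13.37 and 12.85 in the growth animals. It was 0.85 (SE 0.14; limma adjusted p = 0.013) higher, and its arms did not overlap. MRPS36 had 12.72, 11.91 and 11.58 against 13.15, 12.90, 13.05 and 12.98, a difference of -0.95 (SE 0.25; limma adjusted p = 0.044). MRPL27 had 13.60, 13.43 and 13.08 against 14.25, 14.26, 14.16 and 13.89, a difference of -0.77 (SE 0.16; limma adjusted p = 0.021). All restricted animals were below all growth animals for both. MRPL19 and MRPS18A had differences of -0.69 (SE 0.17) and -0.65 (SE 0.14), and MRPS23 and MRPS10 of 0.42 (SE 0.10) and 0.40 (SE 0.10), again without overlap. At time 2 MRPS36 was at 12.47 and 12.85 in restricted and 12.56 and 12.60 in growth animals, and these overlap. The change from time 1 to time 2 was not tested. Without restricted animal RL27 0 members were called at time 1, and without any other single animal 1 to 10.

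The change from time 0 to time 1 within each animal differed between the arms for 9 members, 3 higher and 6 lower in restricted animals, against 4.18% and 4.32% of all genes. Under median centring without loess 5 members were called, all higher, against 7.05% of all genes higher and 1.84% lower, and the members' median relative to that of all genes was 0.20, against -0.031 with the loess values. MRPS36 changed by -1.12, -1.01 and -0.53 in the 3 restricted animals and by 0.50, 0.49, -0.09 and -0.20 in the 4 growth animals, a difference of -1.06 (SE 0.24; limma adjusted p = 0.037). MRPL27 changed by -0.82, -0.69 and -0.40 against 0.19, 0.08, 0.34 and 0.32, a difference of -0.87 (SE 0.15; limma adjusted p = 0.019). In both genes the arms did not overlap, and for MRPL27 every animal of an arm moved the same way. MRPL23 changed by 0.90, 0.58 and 0.71 against 0.13, -0.48, -0.07 and 0.09, a difference of 0.81 (SE 0.18; limma adjusted p = 0.037). MRPL14 and MRPL38 had differences of 0.82 and 0.78, and MRPS28, MRPL51 and MRPL50 of -0.85, -0.81 and -0.74. MRPL44, which carries a ribonuclease-like domain, had -0.75. Counts were 0 to 4 with any single animal left out.

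At time 1 the markers of other cell types differed between the arms as well. Fibroblast markers had a summed level of 3396 to 5613 in restricted and of 26577 to 93141 in growth animals, and muscle fibre markers of 390031 to 570683 and 850694 to 1865020. Neither pair of ranges overlaps, and their part in the members' differences was not tested. Among the lists, 12 of 36 complex I subunits and 13 of 34 subunits of complexes III, IV and V were lower in restricted animals and 0 higher, while 0 of 15 translation factors were called. The background was 7.08% of all genes higher and 6.92% lower. These are counts from the loess values, and median centring changed the background to 11.8% and 3.93%.

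Over the 26 conditions the members rose and fell together to a moderate degree. The mean pairwise Pearson's r among the 69 members was 0.474, against 0.00412 among all genes, and 19.7% of member pairs were negative. These values are descriptions with no p, since conditions share animals, slides and the step at birth. Within the 8 prenatal and birth conditions the mean r was 0.532, within the 12 post-natal conditions 0.0821 and within the 6 diet conditions 0.00329. The mean was again 0.474 without GP672. MRPL43, MRPS36, MRPL40, MRPL34 and MRPL24 had the highest mean r with the other members, from 0.668 to 0.674. MRPL52, MRPL10, LOC506989, MRPL11 and MRPS25 had the lowest, at -0.616, -0.591, -0.358, -0.336 and -0.307. MRPL10 belongs to the stalk of the large subunit and MRPL11 to its base, and MRPL12, of the same stalk, is not among these 5. The MRPS18 paralogs had an r of 0.890 (MRPS18A with MRPS18B), 0.817 (MRPS18A with MRPS18C) and 0.837 (MRPS18B with MRPS18C), and the 2 probes of MRPL39 had 0.990.

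**Figure D5:**
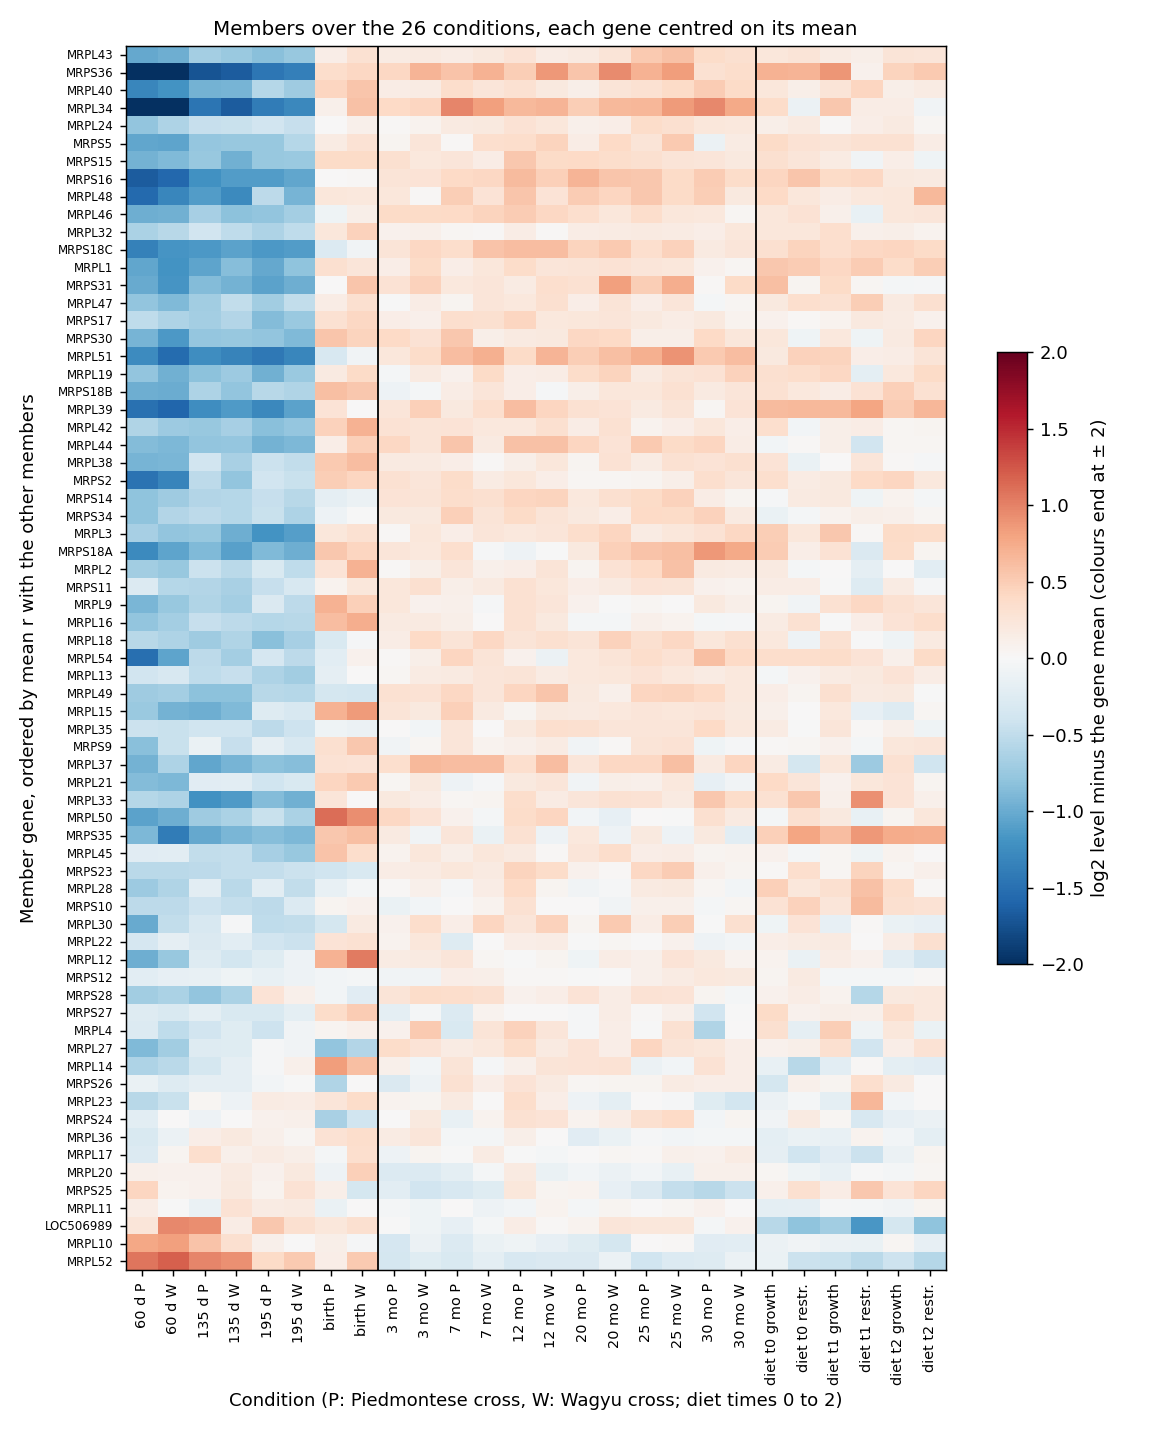
Log2 level minus the gene's mean (colour, ending at ± 2) of the 69 tested members (y axis, ordered by their mean r with the other members) in the 26 conditions (x axis). The prenatal columns are low for most members, and the rows of MRPL52, MRPL10 and LOC506989 at the end of the order run the other way.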

How the data were processed

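The members and the gene lists were chosen with earlier results of these data known. The authors labelled the RNA, hybridised 48 2-colour arrays and deposited, per the file headers from Agilent Feature Extraction 9.5.1, the raw mean intensity, the local background intensity and flags of each spot, and a log10 ratio of both dyes per spot (Cy5 over Cy3), computed by that program after dye normalization. The value table that the authors deposited repeats these log10 ratios. The authors' own mixed-model values were not used here.

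Intensities were corrected by normexp (offset 50), normalized by loess within and Aquantile between arrays in limma 3.58.1 (R 4.3.3) and taken to log2, with control and outlier-flagged spots left out. Probes well above background in fewer than 24 of 96 channels were dropped. This left 15822 probes, 15737 of them with a value on every array, and 14644 genes, each the mean of its probes. Names came from the files, updated through RefSeq (ARS-UCD2.0). Each gene's dye effect was removed and channels were averaged per animal. Groups came from the labels. Tests were limma's two-sided moderated tests with Benjamini-Hochberg adjustment at 0.05, with cross as a term among prenatal and newborn animals and from birth to 3 months, and animal as a block among post-natal ages. The fits were tested on simulated data whose channels varied independently, so that the likeness between channels of the same animal was not simulated.

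Within each comparison up to 8 called members with the largest rise and up to 8 with the largest fall were named, and always MRPS36, MRPL12, MRPS12, MRPL3 and the MRPS18 paralogs, together with the 5 members of the highest and of the lowest mean correlation and up to 5 genes of each other list. The members named in the crosses, those given to show levels or timing, the cell type markers named and the genes of the animal GP672 were chosen after their values were seen, as were the alternatives that kept flagged spots, used each slide alone, left out GP672 or counted GP041A and GP041B as 1 animal. The other alternatives were background subtraction, median centring without loess, quantile normalization, other filters, the brightest probe, the dye effect kept, other blocks, the deposited log ratios and each animal left out. Promoter motifs were not analysed here. The number of arrays and animals limits the precision. The median signal of an array channel was 1.89 to 5.90 times its background.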

Additional observations from a re-analysis of the deposited data

Results flagged for a closer look

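Among 132 groups of 4 to 8 animals looked at for the members named by rule, 13 held 1 animal that stood apart from the others of its group by Dixon's criterion, where chance gives about 1 in 20. At 135 days the animal GP672, which went against its muscle label, was highest for MRPL3 at 9.69 and lowest for MRPS18C at 10.29. At 195 days GP041A was lowest for MRPL52 at 11.32. At 3 months the Piedmontese animal GP112 was lowest for MRPS36 at 11.93 and for MRPL3 at 9.79. At 12 months GW179 was highest for MRPL34 at 11.47 and GP285 highest for MRPS18B at 12.77. At 20 months GW245 was highest for MRPL3 at 10.72, and at 25 months it was highest for MRPS12 at 7.33 while GP201 was lowest for MRPL12 at 10.31. In the diet experiment RL671 was lowest for MRPL3 at 9.77 among restricted animals at time 0, RG208 was lowest for MRPL52 at 10.68 among growth animals at time 0, and RG604 had the lowest mean of the members at 11.55 among growth animals at time 1.

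The change from time 0 to time 1 differed between the diets for 9 members by a test of the difference itself. Restricted minus growth, the differences were 0.82 for MRPL14, 0.81 for MRPL23, 0.78 for MRPL38, -0.74 for MRPL50, -0.75 for MRPL44, -0.81 for MRPL51, -0.85 for MRPS28, -0.87 for MRPL27 and -1.06 for MRPS36. Under median centring 5 members were called, all higher, against 7.05% of all genes higher and 1.84% lower. Fibroblast and muscle fibre markers differed between the arms at time 1, and their part was not tested.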

How the results depend on the processing

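No paired analysis was possible by replicate number because the labels number no replicates across groups. The counts of members called from 195 days to birth and from prenatal to post-natal animals stayed within 1.5 times under every alternative except newborn animals in place of prenatal ones, which gave 34. Of 277 counts recomputed over all comparisons, 246 stayed within that range. Median centring without loess moved the count from 60 to 135 days to 0, from 135 to 195 days to 0, from birth to 3 months to 6, over post-natal ages to 7, from 3 to 20 months to 0, from 25 to 30 months to 60 and of the diet change to 5. With GP041A and GP041B as 1 animal the count from 135 to 195 days was 3. The deposited log ratios gave 12 for the crosses after birth and 13 at diet time 1, and the shares of all genes called with them are not given. With 1 animal left out, counts ranged from 0 to 9 from 60 to 135 days, 3 to 7 from 135 to 195 days, 51 to 54 from 195 days to birth, 26 to 29 from birth to 3 months, 64 to 64 from prenatal to post-natal animals, 46 to 53 over post-natal ages, 14 to 16 from 3 to 20 months, 17 to 24 from 25 to 30 months, 0 to 0 for the crosses before and after birth and at diet times 0 and 2, 0 to 10 at diet time 1 and 0 to 4 for the diet change. Those that moved by over 1.5 times are named in the report, except that diet time 1 gave 2, 3, 1 and 3 without RG157, RG166, RG208 and RG604 and 1 without RL671, and that the diet change gave 4, 0, 1 and 4 without these growth animals and 4, 0 and 3 without RL24, RL27 and RL671. Mean r among members was 0.0821 in post-natal, 0.532 in prenatal and birth and 0.00329 in diet conditions alone, 0.694 under median centring (all genes 0.0497), and 0.459 to 0.475 with each array replicate left out.

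Of 2435 values recomputed for named genes, 2147 kept their direction and side of the threshold, 272 were no longer called (171 without 1 animal, 59 under median centring and 42 otherwise) and 16 turned. Under median centring these were MRPS34 at -0.072 from birth to 3 months, MRPL20 at 0.12 from prenatal to post-natal animals, MRPL23 at 0.026 and MRPL37 at 0.082 from 3 to 20 months, and from 25 to 30 months MRPL4 at 0.63, MRPS14 at 0.76, MRPS18C at 0.85, MRPS24 at 0.68, MRPS31 at 0.57, MRPS36 at 0.62, MRPS5 at 0.72 and MRPS9 at 0.41. With newborn in place of prenatal animals they were MRPL12 at -0.76, MRPL3 at -0.041, MRPS18A at -0.13 and MRPS18B at -0.43. The cause was not tested. Dim probes limit MRPS12 and MRPS23, which were not well above background at 60 days.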
